A study of Mus musculus with 6 samples.

Results

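The cytoplasmic ribosomal protein genes encode the proteins of the ribosome that translates nuclear messages. They were taken by name: every gene symbol in the 6 libraries that reads Rpl or Rps followed by a number (with an optional a, l, x or y and further digits), together with Rplp0, Rplp1, Rplp2 and Rpsa. That rule found 83 genes among 28649 gene names, 51 of the large and 32 of the small subunit. It does not match Fau, which encodes a ribosomal protein as a fusion with a ubiquitin-like sequence, nor Rack1, a small-subunit scaffold; their values are given as neighbours of the list.

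The data are droplet single-cell RNA counts (unique molecular identifiers, UMIs) of 6 libraries, 3 labelled shNC and 3 labelled shPgk1. All 6 are labelled as mouse 4T1 cells, a transplantable mammary tumour line, transduced with lentivirus for 48 h and then kept in puromycin at 2 µg/mL for 7 days. The shNC cells received a non-targeting short hairpin RNA and the shPgk1 cells one against Pgk1, the glycolytic enzyme phosphoglycerate kinase 1; the series title ties PGK1 to NF-kB p65 signalling and M2-like macrophages. Nothing in the labels says whether the 3 libraries of a group came from separate cultures or animals, and the p-values below reflect the scatter of these libraries, which may be technical.

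The targeted gene did not separate the groups. Over all kept barcodes Pgk1 stood at 351, 341 and 313 UMIs out of each 1000000 (CPM) in the shNC libraries and at 324, 324 and 349 CPM in the libraries labelled shPgk1, so the 2 sets overlap. In tumour-marked barcodes the Pgk1 level was 285, 244 and 221 CPM for shNC against 242, 295 and 322 CPM for the libraries labelled shPgk1, again overlapping, with the higher mean in the latter (edgeR log2 0.31 ± 0.14, SE, adjusted p = 0.186). The direction of every group difference below therefore rests on the labels alone. The libraries also hold more than a carcinoma line: beside barcodes marked by Epcam and Krt8 there were barcodes marked as monocytes or macrophages, T cells, neutrophils, fibroblasts and endothelial cells. Barcodes are numbered afresh in each library, so barcodes shared between libraries could not be counted. Of 42902 barcodes 41434 were kept, and the libraries held between 78778073 and 128933960 UMIs.

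Each barcode was assigned to a lineage when one marker list alone reached at least 3 UMIs and at least its library-wide mean level; no ribosomal protein gene is in any list. This gave 15233 Epcam/Krt8-marked barcodes (epithelial tumour markers), 10778 Csf1r/Cd68-marked (monocyte or macrophage), 2432 Cd3e-marked (T cell), 1829 Col1a2-marked (fibroblast), 1418 S100a8-marked (neutrophil) and 411 Cdh5-marked (endothelial). Of the 41 lineage markers 40 were highest in their own lineage, which follows largely from the marking by these same genes and is no separate check. The exception was Cldn7, which was nearly absent from every lineage. The mix differed by label: Epcam/Krt8-marked barcodes numbered 1810, 1621 and 2111 in the shNC libraries and 2676, 3637 and 3378 in those labelled shPgk1, and S100a8-marked ones 462, 311 and 239 against 53, 184 and 169.

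As background, a ribosome is built from a small 40S subunit, which decodes the message, and a large 60S subunit, which joins amino acids, and each carries 1 copy of nearly every ribosomal protein. The genes are largely regulated together. Their messages open with a run of pyrimidines led by a C (a terminal oligopyrimidine or TOP motif). Through it mTORC1 and the protein Larp1 control their translation. A few members are duplicates with narrow expression: Rpl39l and Rpl10l are known from testis, Rpl3l from heart and skeletal muscle, Rps27l as a p53 target, and Rpl22l1 as a partner of Rpl22 in blood cell development.

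The 30 bases around the annotated start (15 before it and 15 from it) are shown for the genes the results turn on, because 2 of the duplicates and 2 ordinary members differed most between lineages relative to the other members. The sequences come from RefSeq start sites on GRCm38.p6, read on the gene's strand from 5′ to 3′, and capitals mark a run of at least 5 pyrimidines led by a C that opens within 5 bases of the start.
Rpl39l, chr16:10170213-10170242, plus strand: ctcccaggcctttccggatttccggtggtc
Rpl39, chrX:37085208-37085237, minus strand: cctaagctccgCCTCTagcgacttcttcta
Rpl3l, chr17:24727811-24727840, plus strand: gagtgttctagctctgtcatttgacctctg
Rps15a, chr7:118116133-118116162, minus strand: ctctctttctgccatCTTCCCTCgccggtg
Rps9, chr7:3704026-3704055, plus strand: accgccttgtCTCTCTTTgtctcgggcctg
A run opening within 5 bases of the start had 8 bases in Rps15a and Rps9 and 5 in Rpl39, and Rpl39l and Rpl3l had none. Pyrimidine runs that open farther from the start stay in small letters. The windows of Rpl39l, Rpl3l, Rpl39 and Rps15a hold such runs. Of the 83 members 63 matched the RefSeq table, and 29 of them (46.0%) had such a run at a start, against 5718 of 27025 genes in the table (21.2%). In other gene lists the run stood in 8 of 17 other TOP transcripts (47.1%), 17 of 69 mitochondrial ribosomal protein genes (24.6%) and 7 of 36 ribosome biogenesis genes (19.4%). Only the gene's own strand was searched. A match is a string of letters at an annotated start and not a measured start. Its absence says only that no such run opens within 5 bases of the annotated start.

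Ribosomal protein messages took between 10.3% and 27.4% of a lineage's UMIs. In Epcam/Krt8-marked barcodes the share was 27.8%, 25.2% and 24.9% in the shNC libraries and 28.3%, 29.1% and 29.1% in the libraries labelled shPgk1, with a mean of 27.4% ± 1.89 (SD, n = 6). In Cd3e-marked barcodes it was 26.6%, 26.3% and 26.9% against 28.7%, 27.5% and 26.6%, with a mean of 27.1% ± 0.86 (SD, n = 6). These are the 2 lineages at the top, and their order changed from library to library: the Epcam/Krt8 share was the higher in 3 of 6.

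Csf1r/Cd68-marked barcodes came next, with 19.8%, 21.8% and 21.6% in shNC and 21.6%, 23.3% and 21.9% in the libraries labelled shPgk1 (mean 21.7% ± 1.11, SD, n = 6). The stromal lineages lay close together, at 19.6% ± 0.706 for Col1a2-marked and 19.5% ± 1.06 for Cdh5-marked barcodes (SD, n = 6). S100a8-marked barcodes had the lowest share in every library: 10.2%, 9.52% and 12.2% in shNC and 12.4%, 8.09% and 9.76% in the libraries labelled shPgk1, a mean of 10.3% ± 1.65 (SD, n = 6). No S100a8 value came near the lowest value of another lineage. These shares are of summed counts, in which deep barcodes weigh most. The median S100a8-marked barcode had a share of 6.79% to 7.54% across libraries. Of the 1418 such barcodes, 1198 lay in the neutrophil-like cluster (median 1722 UMIs). Another 47 and 55 lay in the large macrophage-like clusters (medians 16244 and 12530.5 UMIs). The S100a8 folds and label differences below use the same sums.

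**Figure D1:**
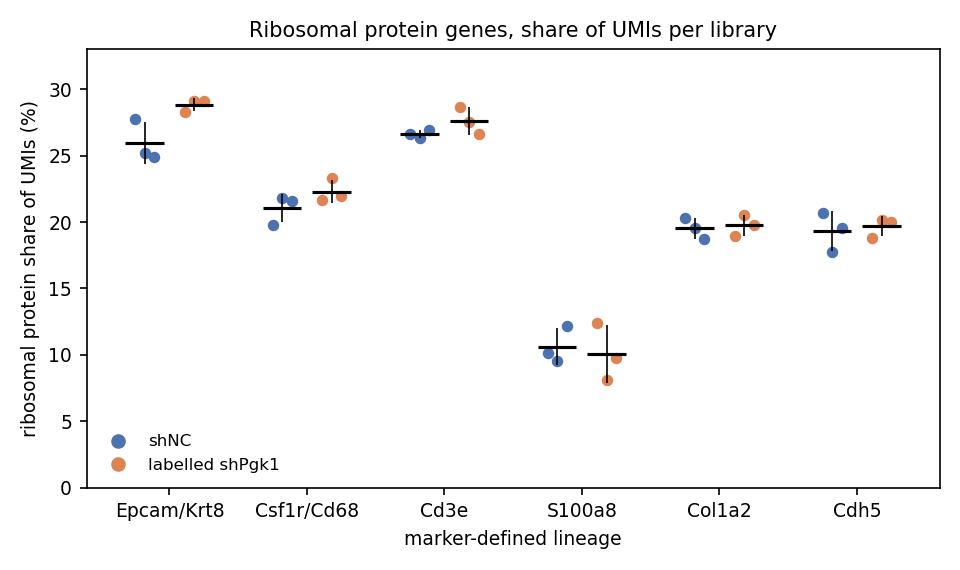
Share of UMIs from the 83 ribosomal protein genes (y axis, percent) in each of 6 marked lineages (x axis), 1 point per library with shNC and shPgk1 labels in separate colours, a horizontal bar for the group mean and a vertical line for ± 1 SD. The S100a8 points lie between 8.09% and 12.4%, below every point of the other 5 lineages, and the Epcam/Krt8 points are the only ones whose label groups do not overlap.

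Of the 15 pairs of lineages, 11 differed in the same direction in all 6 libraries, with an exact two-sided sign-flip permutation test giving for each the smallest p that 6 libraries allow, 0.0426 after Benjamini-Hochberg adjustment over the 15 pairs. The Epcam/Krt8 share exceeded the Csf1r/Cd68 share by 5.72 ± 1.96 percentage points and the S100a8 share by 17.0 ± 2.95 points (SD of the within-library difference, n = 6). The Csf1r/Cd68 share exceeded the S100a8 share by 11.3 ± 2.35 points (SD, n = 6). The other 4 pairs did not pass: Epcam/Krt8 minus Cd3e was 0.28 points (exact p = 0.656), Csf1r/Cd68 minus Col1a2 2.02 points and minus Cdh5 2.17 points (exact p = 0.0625 for both), and Col1a2 minus Cdh5 0.14 points (exact p = 0.812). With any 1 library left out no pair could pass, since the exact test on 5 libraries cannot go below p = 0.0625.

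Both subunits separated the neutrophil-marked barcodes from the rest. Large-subunit genes took 16.1% of UMIs in Epcam/Krt8-marked, 14.95% in Cd3e-marked, 11.9% in Csf1r/Cd68-marked and 5.63% in S100a8-marked barcodes. Small-subunit genes took 11.3%, 12.2%, 9.77% and 4.72% in the same lineages. In these means over the 6 libraries the Cd3e lineage had the larger share for the small subunit and the Epcam/Krt8 lineage for the large. This order was not tested.

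The number of UMIs per barcode differed between lineages, but the lineages did not rank by it as they did by share. Cd3e-marked barcodes, with a share among the highest, had medians of only 4578 to 8082 UMIs across libraries. S100a8-marked barcodes had medians of 1570 to 1973 UMIs across libraries, against 8445 to 14487 in Epcam/Krt8-marked and 13813 to 17827 in Csf1r/Cd68-marked barcodes, and within a lineage the share was higher in barcodes with more UMIs. In the shNC libraries Epcam/Krt8-marked barcodes with under 2500 UMIs had a share of 14.7% ± 1.56 and those with over 20000 UMIs one of 28.7% ± 0.886 (SD, n = 3). Compared at the same depth, below 2500 UMIs in the shNC libraries, the S100a8 share was still the lowest at 7.88% ± 0.594, with Csf1r/Cd68 at 11.4% ± 1.07, Col1a2 at 13.1% ± 0.713, Epcam/Krt8 as above and Cd3e at 16.6% ± 1.07 (SD, n = 3 each). Over 20000 UMIs in the same libraries the Cd3e share (29.6% ± 0.346) and the Epcam/Krt8 share were the highest, and Csf1r/Cd68 (22.0% ± 1.12), Col1a2 (20.4% ± 0.742) and Cdh5 (20.4% ± 1.30) lay below both (SD, n = 3 each).

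Gene by gene, most of the 82 members that could be tested moved together between lineages. Each gene's summed counts were compared between 1 lineage and the mean of the other 5 with edgeR's quasi-likelihood test, with the library as a block, and called lineage-specific at an adjusted p below 0.05 and a log2 fold of at least 1. The median member's log2 fold was 0.61 in the Epcam/Krt8 lineage (0.01 for the median of all genes tested), 0.41 in Csf1r/Cd68 (-0.04), 0.34 in Cd3e (-0.01), 0.11 in Col1a2 (-0.07), -0.30 in Cdh5 (-0.07) and -1.15 in S100a8 (-0.20). The median fold was thus highest in the tumour-marked barcodes and lowest in the neutrophil-marked ones, and Csf1r/Cd68 ranked above Cd3e, the reverse of their shares.

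In the S100a8 lineage 65 members were called lower, where 11.7% of all genes tested were called lower. Rps18, a protein of the 40S head, had the largest fall at a log2 fold of -1.64 ± 0.10 (SE), with 655 ± 202 CPM against 1968 ± 142 in Csf1r/Cd68 and 2502 ± 184 in Epcam/Krt8 (SD, n = 6). The members nearest the size limit differed little: Rpl37a at -1.001 and Rps20 at -1.01 were just inside it, and Rps28 at -0.98 and Rps14 at -0.97 just outside. The count over all lineages was 69 lower. It fell to 39 when barcodes were marked by the genes that name the lineages alone, without the rest of each list. It fell to 14 when a list had to reach 2 times its library-wide mean. The share of all genes called lower under these markings is not given here, so the falls are not read as particular to the members. With barcodes limited to 5000 to 20000 UMIs the S100a8 lineage had too few barcodes to be tested.

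In the Epcam/Krt8 lineage 6 members were called higher, where 12.5% of all genes were, among them Rpl21 (1.09 ± 0.06), Rpl37 (1.06 ± 0.06), Rpl26 (1.05 ± 0.06), Rps12 (1.05 ± 0.06) and Rpl36 (1.04 ± 0.06; log2 fold ± SE, edgeR). Another 2, Rpl39l and Rpl3l, were called lower, where 19.5% of all genes were. Few other calls passed the size limit: Rpl3l in Csf1r/Cd68 (higher; 11.0% of genes called higher there), Rps15a in Cd3e (higher; 12.9%), Rpl3l in Cd3e (lower; 20.6%), Rpl39l in Col1a2 (higher; 15.6%), Rpl3l in Col1a2 (lower; 13.0%), Rpl3l in S100a8 (higher; 14.1%), and none in Cdh5 (11.7% higher, 8.26% lower). Over all lineages the 10 calls of higher became 4 with relative log expression (RLE) scaling factors in place of TMM. The share of all genes called higher with RLE factors is not given here.

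To see how even the set is, each member was also scaled to the sum of all members in the same library and lineage. On that relative scale 80 of 82 members stayed within a log2 difference of 1 in every lineage, 68 within 0.5 and 21 within 0.25; the only 2 past 1 were Rpl39l and Rpl3l. Rpl27, Rpl9 and Rpl7a were the steadiest. Small relative shifts were still measurable with counts this deep: 25 members were higher and 32 lower at an adjusted p below 0.05 in the Epcam/Krt8 lineage (edgeR), where 79.8% of all genes passed on the same scale, and 21 were higher and 10 lower in Cdh5 (47.9%).

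**Figure D2:**
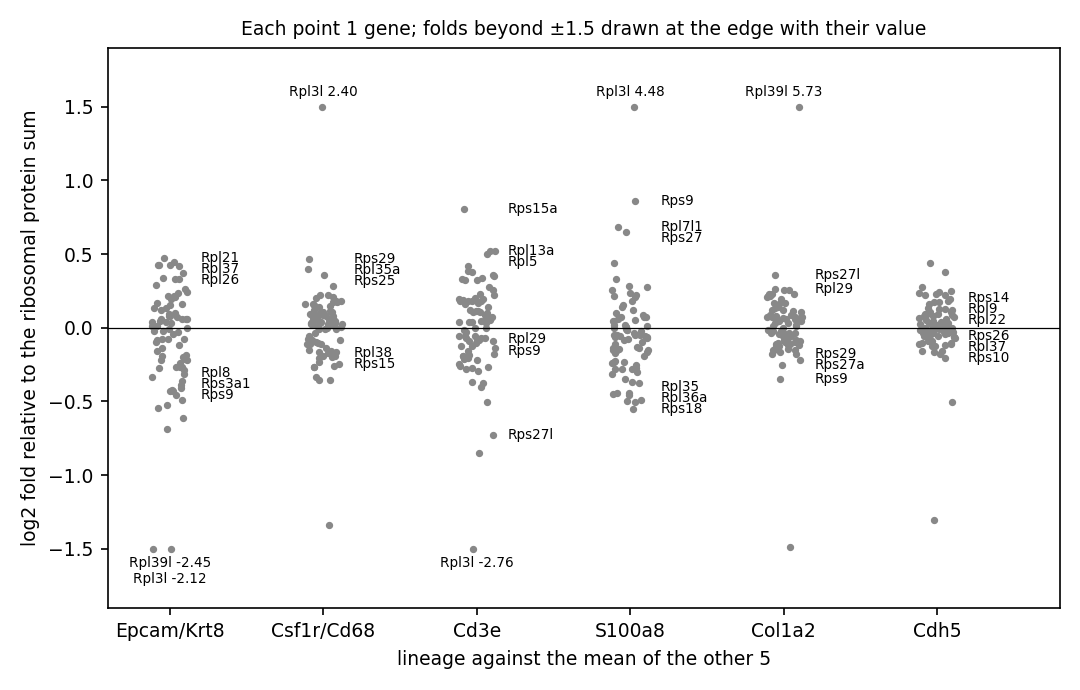
Log2 fold of each ribosomal protein gene in 1 lineage over the mean of the other 5, scaled to the sum of all members (y axis), for each of the 6 lineages (x axis); each point is 1 gene, points beyond the scale are drawn at its edge with their value, and names beside the points mark genes from the naming rule. Of 82 genes 80 lie within 1 of zero in every lineage, and the points far outside are Rpl39l in Col1a2 (5.73) and Rpl3l in S100a8 and Csf1r/Cd68.

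In tumour-marked barcodes the relative rises were led by large-subunit proteins. Rpl21 stood at 3242, 3190 and 3464 CPM in the shNC libraries and 3501, 3290 and 3341 CPM in the libraries labelled shPgk1, against means of 2441 CPM in Cd3e, 1905 in Col1a2, 1725 in Csf1r/Cd68, 1653 in Cdh5 and 946 in S100a8; every Epcam/Krt8 library was above every library of the other lineages. Relative to the member sum Rpl21 was 0.47 ± 0.05 higher, Rpl37 0.45 ± 0.05 and Rpl26, known for binding p53 messenger RNA, 0.43 ± 0.05 (log2 ± SE, edgeR adjusted p = 1.33e-11, 1.99e-10 and 2.08e-10). The members least raised among those that passed as plain folds over the other lineages were Rps9 (0.17 ± 0.07), Rpl8 (0.20 ± 0.07) and Rps3a1 (0.20 ± 0.08; log2 ± SE), well under the median member's 0.61. Rps3 and Rps15a did not pass as plain folds (-0.06 and 0.02) and were the lowest on the relative scale after Rpl39l and Rpl3l, at -0.68 ± 0.05 and -0.61 ± 0.06.

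T-cell-marked barcodes had their own profile, led by Rps15a, a 40S protein. Its level in Cd3e-marked barcodes was 4977, 5092 and 5320 CPM in shNC and 5825, 5850 and 5404 CPM in the libraries labelled shPgk1 (5411 ± 364, SD, n = 6), while the other lineages had means of 2892 (Csf1r/Cd68), 2639 (Col1a2), 2424 (Epcam/Krt8), 2371 (Cdh5) and 1039 (S100a8). The lowest Cd3e library was thus above the highest library elsewhere, and the log2 fold was 1.11 ± 0.08 (SE) over the other lineages and 0.81 ± 0.05 relative to the member sum (edgeR adjusted p = 7.06e-17). Rpl13a, which inflammatory stimuli release from the 60S subunit, and Rpl5, which with 5S RNA can bind Mdm2, followed at 0.52 ± 0.04 and 0.52 ± 0.06 on the relative scale. Rpl13a had 4083 ± 142 CPM in Cd3e and between 1051 and 2457 CPM as means elsewhere (n = 6 each). Its gene (GRCm38 chromosome 7, 45125558 to 45128761, minus strand, GENCODE M21) overlaps several small nucleolar RNAs and Gm45713, so its counts may be shared; Rps15a (chromosome 7, 118104372 to 118116188, minus strand) overlaps no annotated gene.

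T-cell-marked barcodes also had relatively little Rps27l, the p53-induced copy of Rps27; of the members, Rpl3l and Rpl39l were lower on the relative scale. Its level was 299 ± 23.9 CPM in Cd3e-marked barcodes against 419 ± 9.44 in Epcam/Krt8, 405 ± 16.9 in Col1a2, 378 ± 30.2 in Cdh5 and 376 ± 11.7 in Csf1r/Cd68 (SD, n = 6), a relative fold of -0.73 ± 0.07 (SE, edgeR adjusted p = 2.21e-12). Only S100a8-marked barcodes had less, at 202 ± 68.0 CPM. Its counterpart Rps27 went the other way, with 4943 ± 177 CPM in Cd3e and 4009 ± 455 in Epcam/Krt8, the next highest.

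Among members other than Rpl3l, macrophage-marked barcodes were set apart mostly by Rps29, a zinc-binding 40S protein, at 6556, 7513 and 7844 CPM in shNC and 7621, 7643 and 6741 CPM in the libraries labelled shPgk1. Its mean of 7320 ± 534 CPM was above that of Epcam/Krt8 (5963 ± 374) and Cd3e (5623 ± 208), although the member share was larger in both (SD, n = 6). Relative to the member sum Rps29 was 0.47 ± 0.04 higher, Rpl35a 0.40 ± 0.04 and Rps25 0.36 ± 0.04 (log2 ± SE, edgeR). Rpsa, the laminin-receptor protein of the 40S subunit (-0.36 ± 0.05), and Rpl23a (-0.35 ± 0.04) were the lowest on that scale after Rpl39l (-1.34 ± 0.43), with plain folds of 0.03 and 0.04.

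Neutrophil-marked barcodes kept some members far better than others. Rps9, a 40S protein important for decoding accuracy, had 2747, 2602 and 2817 CPM in shNC and 2194, 3007 and 2785 CPM in the libraries labelled shPgk1 (2692 ± 277, SD, n = 6), which overlaps the libraries of Col1a2 (2597 ± 199), Cdh5 (2943 ± 328) and Epcam/Krt8 (3428 ± 553) and lies below all those of Csf1r/Cd68 (3983 ± 190) and Cd3e (4004 ± 124). Its fold over the other lineages was only -0.26 ± 0.07 where the median member had -1.15, which is 0.86 ± 0.06 relative to the member sum (log2 ± SE, edgeR adjusted p = 1.6e-16). Rps27 was kept likewise, at 0.65 ± 0.05, and so was the low-count Rpl7l1 at 0.69 ± 0.15, whose mean in S100a8-marked barcodes, 25.7 ± 9.89 CPM, rests on 113 UMIs. Rps18 (-0.55 ± 0.06), Rpl36a (-0.51 ± 0.06) and Rpl35 (-0.50 ± 0.05) were the most reduced. In fibroblast-marked barcodes Rps9 was instead the lowest member on the relative scale after Rpl3l (-0.35 ± 0.06 against -1.49 ± 0.38).

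Stromal lineages differed little among ordinary members. In Col1a2-marked barcodes Rps27l (0.36 ± 0.06) and Rpl29 (0.26 ± 0.05) were relatively raised and Rps27a, made as a fusion with ubiquitin, was relatively lowered (-0.25 ± 0.04; log2 ± SE). In Cdh5-marked barcodes Rpl39l (-1.30 ± 0.81) and Rpl3l (-0.51 ± 0.53) had the lowest estimates and did not pass, and the relative shifts of the others ran from Rps10 at -0.20 ± 0.04 to Rpl7l1 at 0.44 ± 0.11 and Rpl15 at 0.38 ± 0.04 (log2 ± SE, edgeR). The Cdh5 sums were also shallow, at 795917 to 2083133 UMIs per library.

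The largest lineage difference of any member was that of Rpl39l, the autosomal copy of the X-linked Rpl39 that lines the exit tunnel of the large subunit. Col1a2-marked barcodes had 34.3, 52.1 and 21.5 CPM of it in shNC and 42.7, 35.1 and 61.6 CPM in the libraries labelled shPgk1 (41.2 ± 14.2, SD, n = 6, 1256 UMIs). The means of the other 5 lineages lay between 0.563 and 1.25 CPM, and every Col1a2 library exceeded every library of the other lineages. The log2 fold was 5.77 ± 0.22 (SE, edgeR adjusted p = 4.47e-21). The label groups overlapped in this lineage (log2 0.37 ± 0.37, adjusted p = 0.812).

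Rpl39l was detected in a part of the fibroblast-like barcodes, and whether it was spread evenly among them was not tested. In the cluster of fibroblast-like barcodes 382 of 1946 held a UMI of it and 1 barcode held 20, where the largest tumour-like cluster, of like depth (median 13808 against 13404 UMIs), had 95 of 10489 and at most 2 in a barcode. A pericyte-like cluster of 178 barcodes, named from Rgs5, Notch3 and Kcnj8 and of a median of 13393 UMIs, had 25.2 CPM, with 26 barcodes positive and up to 26 UMIs in 1. Every other named cluster lay at 1.28 CPM or less. In the other 5 lineages Rpl39l amounted to 1.37% to 3.02% of its Col1a2 level, while the Col1a2 marker list itself was found there at 1.48% to 1.85% of its own level; the value in the T-cell-marked barcodes (3.02%, 37 UMIs) is the one above that range by most. Rpl39 itself had its lowest mean outside S100a8 in this lineage, 2964 ± 83.8 CPM against 4911 ± 290 in Epcam/Krt8 (SD, n = 6). Rpl39l lies at GRCm38 chromosome 16, 10170226 to 10174911 on the plus strand (GENCODE M21), between Atf7ip2 and Emp2, and overlaps no annotated gene.

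**Figure D3:**
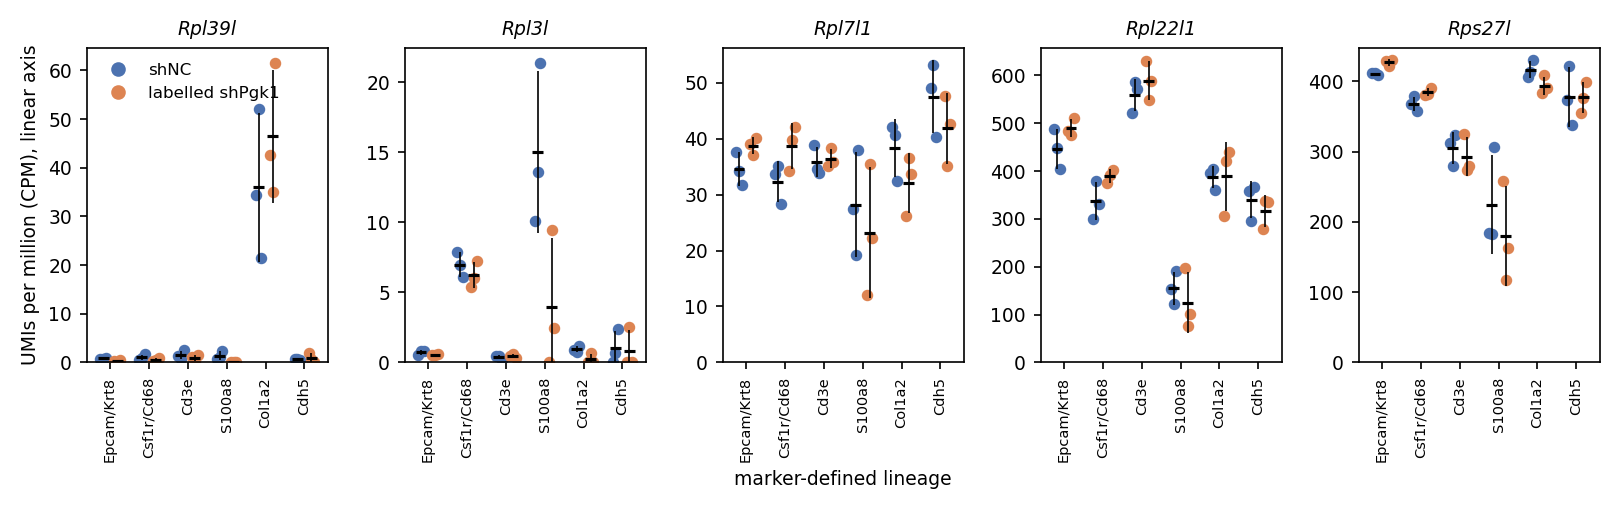
Level of 5 duplicated ribosomal protein genes, 1 panel each (y axis, CPM, linear scale that differs between panels), in each lineage (x axis), 1 point per library coloured by label, with the group mean (horizontal bar) and ± 1 SD (vertical line). Rpl39l has a mean of 41.2 CPM in the Col1a2 lineage and at most 1.25 CPM as a mean elsewhere, and Rpl3l is above 5 CPM in Csf1r/Cd68 in all 6 libraries.

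Rpl3l, the muscle copy of Rpl3, followed the myeloid lineages instead. Csf1r/Cd68-marked barcodes had 7.86, 6.98 and 6.07 CPM in shNC and 5.40, 6.06 and 7.25 CPM in the libraries labelled shPgk1 (6.60 ± 0.915, SD, n = 6, 1246 UMIs). In Epcam/Krt8, Cd3e, Col1a2 and Cdh5 the means lay between 0.418 and 0.926 CPM, and the Csf1r/Cd68 libraries were above all of theirs; the log2 fold was 2.74 ± 0.18 (SE, edgeR). In S100a8-marked barcodes the values were 10.1, 13.6 and 21.4 CPM in shNC and 0, 9.44 and 2.48 CPM in the libraries labelled shPgk1, from 49 UMIs in all, so that lineage's fold of 3.43 ± 0.36 rests on few molecules and 1 library without any. That library had 53 S100a8-marked barcodes with 166836 UMIs, and a count of 0 there allows up to 18.0 CPM (3 counts; counting error only).

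By cluster, Rpl3l was also found outside the macrophage-marked barcodes. The dendritic-like cluster of 764 barcodes, named from Flt3, Zbtb46, Ccr7 and Xcr1, had 14.6 CPM, between 9.28 and 19.9 CPM in its 6 libraries, against 6.70 and 6.55 CPM in the 2 large macrophage-like clusters. A small tumour-like cluster (336 barcodes) had 5.68 CPM, and the 2 large tumour-like clusters had 0.450 and 0.872 CPM. The S100a8 level was 144% of that in Csf1r/Cd68, while the Csf1r/Cd68 marker list stood at 17.2% of its own level there; in Epcam/Krt8, Cd3e, Col1a2 and Cdh5 Rpl3l was at 6.33% to 14.0% and the marker list at 6.48% to 10.4%. The ordinary gene Rpl3 did not follow this pattern: its means were 1683 CPM in Cd3e, 1361 in Epcam/Krt8, 1085 in Csf1r/Cd68 and 446 in S100a8. Rpl3l lies at chromosome 17, 24727820 to 24736143, plus strand, and overlaps no annotated gene.

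The remaining duplicates were expressed in every lineage or in none. Rpl22l1 had its highest mean in Cd3e-marked barcodes, 574 ± 37.0 CPM, followed by 469 ± 37.6 in Epcam/Krt8, 388 ± 48.1 in Col1a2, 364 ± 39.5 in Csf1r/Cd68, 329 ± 34.7 in Cdh5 and 140 ± 49.2 in S100a8 (SD, n = 6). Rpl22 had the same lineages at its ends, 2125 ± 37.7 CPM in Cd3e and 745 ± 132 in S100a8. Rpl7l1 lay between 25.7 and 44.7 CPM everywhere, a narrower range than that of Rpl7 (478 to 1675 CPM). Rpl10l had 7 UMIs in all kept barcodes of the 6 libraries together and was not tested.

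The comparison of the labels, shPgk1 over shNC, was made within each lineage. In tumour-marked barcodes the member share was 26.0% ± 1.60 in shNC and 28.8% ± 0.481 in the libraries labelled shPgk1 (SD, n = 3 each). The latter was 2.87 points higher, and the groups did not overlap. An exact permutation test of 3 against 3 libraries cannot go lower than the p = 0.1 it gave here, which is 0.6 after adjustment over 6 lineages. In Csf1r/Cd68 the difference was 1.23 points (exact p = 0.2) and in Cd3e 0.97 points (exact p = 0.3). In Cdh5 it was 0.34 points (exact p = 0.8), in Col1a2 0.21 points (exact p = 0.7) and in S100a8 -0.55 points (exact p = 0.8), with overlapping groups in all of these. Over all kept barcodes together the share was 22.9%, 22.4% and 22.4% in shNC and 25.2%, 26.7% and 26.2% in the libraries labelled shPgk1, which also held more barcodes of the Epcam/Krt8 lineage, as given above. Median UMIs per Epcam/Krt8-marked barcode were 11426, 8445 and 8848 in shNC and 11307.5, 12345 and 14487 in the libraries labelled shPgk1. These groups overlap. Below 2500 UMIs the tumour share was 14.7% ± 1.56 and 16.4% ± 0.639 in the same order (SD, n = 3 each). Over 20000 UMIs it was 28.7% ± 0.886 and 30.5% ± 0.278. The mean was also higher with the shPgk1 label in the depth ranges between. The part of depth in the tumour share difference was not tested.

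Markers of other lineages moved with the label inside tumour-marked barcodes. The 6 markers of the S100a8 list summed to 234 to 260 CPM there in shNC and to 22.1 to 82.1 CPM in the libraries labelled shPgk1. The 6 of the Col1a2 list summed to 402 to 636 against 177 to 266 CPM, and the 6 of the Csf1r/Cd68 list to 100.3 to 119 against 50.1 to 102 CPM. No marker of these lists was at 0, and the S100a8 and Col1a2 sums did not overlap between the groups. Their part in the share difference was not tested.

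Single genes were tested with edgeR's quasi-likelihood test on summed counts, with p-values adjusted over all genes of the lineage. In tumour-marked barcodes 0 of 82 members passed an adjusted p of 0.05, where 0.163% of all genes were called higher and 0.691% lower; 62 members passed an unadjusted p of 0.05, 61 of them higher, where 13.8% of all genes were higher at that limit. The median member's log2 fold was 0.28 and the median of all genes -0.02, and 78 of 82 folds were above 0. The lowest adjusted p of any member was 0.0721. DESeq2 called 21 members higher (5.67% of genes), and without shNC replicate 1, the shNC library with the highest member share, edgeR called 60 (9.42% of genes) with a median log2 fold of 0.35. Scaled to the member sum 0 were higher (0.132% of genes) and 1 was lower, with the share of all genes called lower not given here.

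The gene with that lowest p was Rpl10, which joins the large subunit last and completes its catalytic site. Its level was 2562, 2163 and 2065 CPM in shNC and 2777, 2817 and 2744 CPM in the libraries labelled shPgk1, without overlap (log2 0.40 ± 0.11, SE). Rps4x, the X-linked 40S protein, had the largest fold, 0.47 ± 0.16 (adjusted p = 0.099), with 2781, 2120 and 1773 CPM against 2694, 2912 and 2983 CPM, so that shNC replicate 1 lay inside the range of the other group. For both genes the shNC libraries spread more widely than those labelled shPgk1, and shNC replicate 1 was the highest of them. Of the abundant members, Rps12 (log2 0.29 ± 0.09, adjusted p = 0.0936), Rplp1 of the elongation-factor stalk (0.28 ± 0.10, adjusted p = 0.104) and Rpl41 (0.32 ± 0.12, adjusted p = 0.122) lay near the median member. Rps20 (0.20 ± 0.09, adjusted p = 0.168) lay below it, and Rps29 (0.09 ± 0.10, adjusted p = 0.531) did not follow.

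Counted without a model, 30 members had all 3 libraries labelled shPgk1 above all 3 shNC libraries in tumour-marked barcodes, where 7.88% of all genes did, and 1 (Rpl39l) had them below, where 24.7% did. Rpl39l had 0.735, 0.677 and 1.00 CPM in shNC and 0.309, 0.162 and 0.496 CPM in the libraries labelled shPgk1 (log2 -1.20 ± 0.41, adjusted p = 0.102), and its mean in tumour-marked barcodes is 1.37% of that in fibroblast-marked ones. The Col1a2 marker list in the same barcodes was lower in the libraries labelled shPgk1 as well, as given above, and its part in the Rpl39l difference was not tested. The number with no overlap and a higher level was 22 in Csf1r/Cd68 (15.9% of genes), 15 in Cd3e (7.4%), 3 in Col1a2 (8.21%), 1 in Cdh5 (7.95%) and 1 in S100a8 (7.76%), and 9 members were lower without overlap in S100a8 (9.57%).

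**Figure D4:**
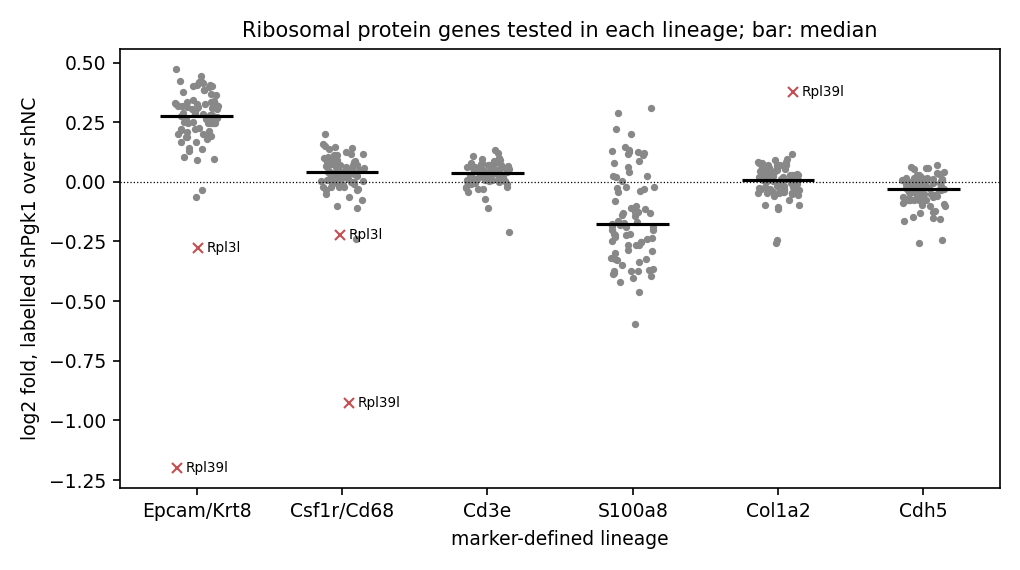
Log2 fold of each ribosomal protein gene, shPgk1 over shNC (y axis), in each lineage (x axis); each point is 1 gene tested, crosses mark the low-count duplicates Rpl39l and Rpl3l, and the bar is the median. The Epcam/Krt8 points centre on 0.28 and those of Csf1r/Cd68, Cd3e, Col1a2 and Cdh5 within 0.04 of zero.

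In the other lineages edgeR also called 0 members, with median log2 folds of 0.04 in Csf1r/Cd68 (0.573% of genes called), 0.04 in Cd3e (0.171%), 0.01 in Col1a2 (0.0%), -0.03 in Cdh5 (0.0108%) and -0.18 in S100a8 (0.32%). At an unadjusted p of 0.05 the numbers were 0 in Csf1r/Cd68 (16.7% of genes), Cd3e (9.2%) and Cdh5 (6.44%), 1 in Col1a2 (9.97%; Rpl29 at -0.25) and 2 in S100a8 (12.1%; Rps18 at -0.59 and Rpl5 at -0.46). DESeq2 called 0 in each of these 5 lineages as well. Without replicate 1 labelled shPgk1, edgeR called 1 member lower in S100a8, and the share of all genes called lower in that fit is not given here. The difference between the tumour and macrophage folds was tested with an interaction term: 0 of 82 members passed (0.199% of genes higher, 1.46% lower), 0 at an unadjusted p of 0.05 (13.8%), with a median difference of 0.21. Without shNC replicate 1 that term called 31 members (1.25% of genes). The gap in member share between the 2 lineages was 4.90 points in shNC and 6.54 points in the libraries labelled shPgk1 (exact permutation p = 0.4).

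Tumour-marked barcodes fell into 2 large clusters, and the label groups held them in different proportions. Clusters were built without ribosomal protein genes. Cluster 0, led by Csf3, Krt8, Wfdc2 and Krt14 at a median of 13808 UMIs, made up 53.8%, 46.9% and 42.7% of the marked barcodes in shNC and 66.5%, 63.5% and 69.3% in the libraries labelled shPgk1. Cluster 2, led by Tiam2, Spata7, Hmga2 and several Gm-numbered transcripts at a median of 8744 UMIs, made up 32.2%, 43.2% and 52.2% against 25.7%, 24.2% and 19.7%. The groups do not overlap for either. The member share was higher in the first, 29.6% ± 0.836 in shNC, than in the second, 20.8% ± 1.16 (SD, n = 3).

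Within a cluster the label difference was smaller. In cluster 0 the share was 29.6% ± 0.836 in shNC and 30.6% ± 0.341 in the libraries labelled shPgk1 (1.05 points, exact permutation p = 0.2), and in cluster 2 it was 20.8% ± 1.16 and 21.6% ± 0.355 (0.81 points, exact p = 0.4). In cluster 4, unnamed and led by Zfp791, Gm26917 and Peak1 with mitochondrial genes after them, it was lower in the libraries labelled shPgk1, 23.1% ± 0.642 against 21.7% ± 0.968 (-1.47 points, exact p = 0.1, the smallest possible). The median member's log2 fold was 0.03 in cluster 0, 0.04 in cluster 2 and -0.10 in cluster 4, and edgeR called 0 members in each (0.575%, 0.41% and 0.167% of all genes). At an unadjusted p of 0.05 there were 2 members in cluster 0 (17.2% of genes), 0 in cluster 2 (11.0%) and 11 in cluster 4 (8.56%), all of them lower. These comparisons within clusters were chosen after the data had been seen.

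**Figure D5:**
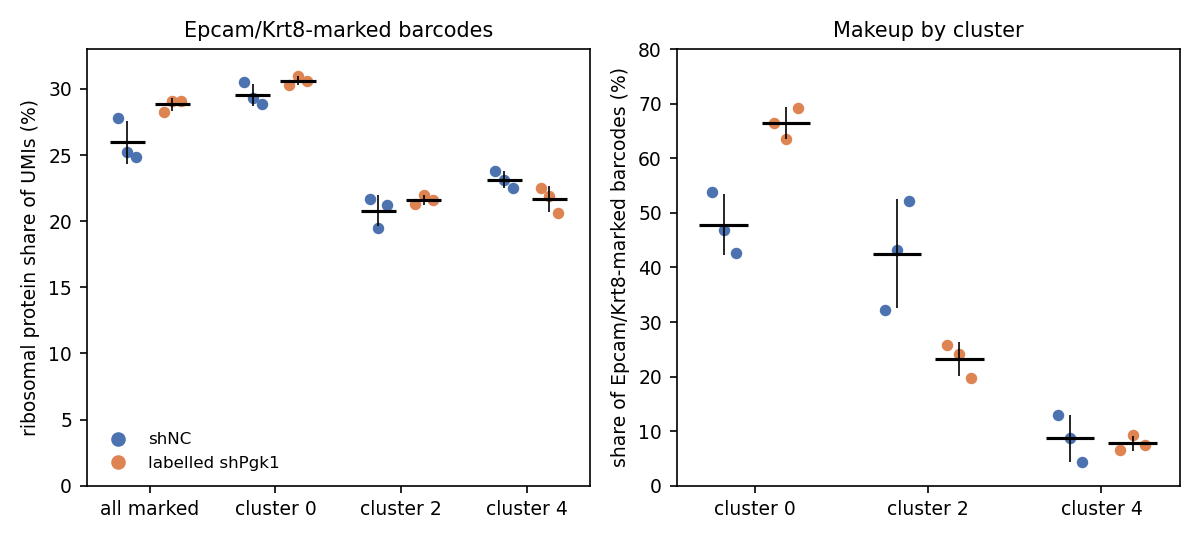
Ribosomal protein share of UMIs (percent, left) in all Epcam/Krt8-marked barcodes and within 3 clusters of them, and the makeup of the marked barcodes by cluster (percent of barcodes, right), 1 point per library coloured by label, with the group mean (horizontal bar) and ± 1 SD (vertical line). Cluster 0 holds 47.8% of barcodes on average in shNC and 66.4% in the libraries labelled shPgk1, while the member share inside it differs by 1.05 points.

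Ribosomal RNA-like counts moved in the opposite direction to the members in tumour-marked barcodes. Gm42418 and AY036118, transcripts that overlap ribosomal RNA sequence, took 8.76%, 12.0% and 11.8% of tumour-marked UMIs in shNC and 8.29%, 7.48% and 7.15% in the libraries labelled shPgk1, and AY036118 had a log2 fold of -0.50 ± 0.12 (SE, adjusted p = 0.0653). Their part in the member shares was not tested beyond leaving them out together with mitochondrial genes, after which the tumour share difference kept its sign. Macrophage-marked barcodes had the same shift (AY036118 -0.62 ± 0.13, adjusted p = 0.0719) with a median member fold of 0.04. Both transcripts also had folds below 0 in Cd3e, S100a8 and Col1a2 (median log2 -0.40, -0.30 and -0.30). In S100a8 the median member was below 0 too (-0.18).

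The rest of the translation apparatus was followed through lists chosen for this work, and edgeR called 0 members of each list in each lineage. In tumour-marked barcodes the 23 other TOP transcripts had a median log2 fold of 0.28, equal to that of the ribosomal proteins, with 15 higher at an unadjusted p of 0.05, where 13.8% of all genes were higher. They include Tpt1 (0.57 ± 0.15, adjusted p = 0.0687), with 5991 ± 1209 CPM in shNC and 8259 ± 571 in the libraries labelled shPgk1 (SD, n = 3), and the elongation factor Eef1a1 (0.36 ± 0.11, adjusted p = 0.089). The 78 mitochondrial ribosomal protein genes, which are not TOP transcripts, had a median of 0.25 with 46 higher at that limit, led by Mrpl42 (0.42 ± 0.10, adjusted p = 0.062). The 40 ribosome biogenesis genes had a median of 0.18 with 14 higher, among them the nucleolar chaperone Npm1 (0.44 ± 0.13, adjusted p = 0.0809), and the 8 proliferation genes one of 0.26 with 5 higher, among them Pcna (0.38 ± 0.09, adjusted p = 0.0644). Of 15 regulators of mTORC1 and Myc 5 passed an unadjusted p, where 29.0% of all genes did in either direction, with Rheb higher (0.41 ± 0.14, adjusted p = 0.0958) and Rptor lower (-0.34 ± 0.12, adjusted p = 0.113).

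In macrophage-marked barcodes the lists went apart. Ribosome biogenesis genes had a median log2 fold of 0.26 with 22 of 40 at an unadjusted p of 0.05, all higher (7.19% of all genes were higher at that limit), and proliferation genes one of 0.39 with 7 of 8, while other TOP transcripts (0.04) and mitochondrial ribosomal proteins (0.08) stayed near the ribosomal proteins' 0.04. The lowest adjusted p was that of Rrs1, a factor for 60S assembly, at 0.0523: 8.25 ± 0.567 CPM in shNC and 12.9 ± 1.38 in the libraries labelled shPgk1 (SD, n = 3; log2 0.58 ± 0.11). Nop58, of the box C/D ribonucleoproteins that modify ribosomal RNA, went from 26.5 ± 2.02 to 42.5 ± 7.61 CPM (log2 0.62 ± 0.12, adjusted p = 0.0561), and Myc, an activator of ribosome synthesis, from 24.6 ± 0.577 to 35.1 ± 5.96 CPM (log2 0.45 ± 0.11, adjusted p = 0.0962). None of the 3 passed the adjusted threshold.

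The macrophage-marked barcodes also differed by label in makeup. Cluster 1, led by Acp5, Pf4 and Msr1, held 39.1%, 56.9% and 56.3% of them in shNC and 58.1%, 68.0% and 60.6% in the libraries labelled shPgk1, and the 8 epithelial markers of the Epcam/Krt8 list, none at 0, summed to 290 to 410 CPM against 417 to 556 CPM, both without overlap. Within cluster 1 the ribosome biogenesis genes had a median of 0.17 with 15 of 40 higher at an unadjusted p of 0.05 (6.7% of genes) and 0 after adjustment (0.0654%). Within cluster 3, led by Gm15056, Slc7a2 and Ly6i, the median was 0.28 with 21 of 40 higher (6.11%) and 1, Nop58, after adjustment (0.0829%; log2 0.68 ± 0.13, SE, edgeR adjusted p = 0.0472). The ribosomal proteins had medians of -0.03 in both clusters. These clusters were looked at after the data had been seen, and the part of the epithelial markers in these folds was not tested.

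Some counts may belong to near-identical copies. The processed copies Rpl9-ps6 (550 and 485 CPM over all kept barcodes, means of shNC and of the libraries labelled shPgk1), Rpl10-ps3 (410 and 351) and Rps27rt (409 and 321) carry counts that Rpl9, Rpl10 and Rps27 could share. All 3 had lower means in the libraries labelled shPgk1 while Rpl10 and Rps27 had higher ones, and 48 of the 83 members overlap another annotated gene. The sources used here do not give how reads were split between them.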

How the data were processed

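Droplet single-cell libraries were made on the TaiM4 platform and sequenced on DNBSEQ, per the labels' protocols. The authors deposited 1 matrix of raw UMI counts per library; the submitters' processing notes name PISA 0.12, Seurat 4 and the human build GRCh38 (hg38), although 97.6% of the gene names (27957 of 28649) are mouse names in GENCODE M21, and no source used here gives the annotation behind the counts.

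The filter kept barcodes that had 500 or more UMIs, 300 or more genes and a mitochondrial part of 20% or less (643 failed), less 825 above a doublet score of 0.25 (scanpy 1.11.5, Python 3.11.15). A barcode marked for 1 lineage entered that lineage; 1806 marked for several and 7527 marked for none were left out. Counts were summed per library and lineage (at least 20 barcodes), scaled by TMM, filtered with filterByExpr and tested with edgeR 4.0.16 (R 4.3.3); DESeq2 1.42.0 was an alternative. Shares were tested with exact permutation tests (scipy 1.17.1). Clusters used 2000 variable genes without ribosomal protein genes, 30 components, 15 neighbours and leiden resolution 0.5 (leidenalg 0.10.2). The fits were tested on simulated data. Sums per library ranged from 166836 UMIs (S100a8) to 70518839 (Epcam/Krt8), and intervals of counting error are smallest in the latter.

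CPM values are UMIs per 1000000 of the lineage's sum, without division by length, so levels of different genes are not compared. Genes were named by rule: the duplicates with their counterparts, the 5 members of most UMIs (Rpl41, Rps12, Rplp1, Rps29, Rps20), up to 3 members per lineage on each side of the median member past the threshold, and up to 4 genes per companion list by p. Some single-gene results are not reported here. Rps3, Rpsa, Rpl23a, Rpl15 and the genes called within clusters were named after their values were seen. The members and lists were chosen with earlier results of these data known. Same-numbered libraries of the 2 groups did not deviate together (correlations from -0.12 to 0.21 by lineage and number), so the numbers were not used as pairs. Alternatives covered the marking of barcodes, depth, scaling, low-count filter, tool, replicate block and leaving out each library.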

Additional observations from a re-analysis of the deposited data

Results flagged for a closer look

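Barcodes outside the 6 lineages also carried a higher ribosomal protein share in the libraries labelled shPgk1. In barcodes marked for no lineage the share was 20.9% ± 0.841 in shNC and 23.4% ± 0.625 in the libraries labelled shPgk1, and in barcodes marked for more than 1 lineage it was 20.5% ± 0.587 and 24.3% ± 1.06 (SD, n = 3 each). In both the groups did not overlap, and the exact permutation test gave its smallest possible value, p = 0.1. The first set contains 2566 barcodes of the unnamed cluster 4 and the second is where mixed droplets would fall; the makeup of either set by label was not tested.

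Of the genes outside the naming rule, Fau and Rack1 were higher as well over all kept barcodes. Fau went from 5296 ± 153 to 5645 ± 53.6 CPM and Rack1 from 1618 ± 134 to 2010 ± 124 CPM (means of shNC and of the libraries labelled shPgk1, SD, n = 3 each), each without overlap and each with an exact permutation p = 0.1, the smallest that 3 against 3 allow. Rpl36al had 937 ± 11.5 and 976 ± 24.7 CPM with overlap (exact permutation p = 0.2). The libraries labelled shPgk1 held more Epcam/Krt8-marked barcodes (2676 to 3637 against 1621 to 2111). Within lineages edgeR gave Fau log2 folds of 0.28 in Epcam/Krt8, -0.06 in Csf1r/Cd68 and 0.33 in S100a8. For Rack1 the folds were 0.42, 0.11 and -0.32 in the same lineages. The edgeR adjusted p was 0.101 or more for each of these.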

How the results depend on the processing

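Across alternatives, 214 values of the main comparisons stayed on their side of the threshold and kept their direction, 22 moved and 10 reversed; of single pairs and genes 873 stayed, 41 moved, 19 reversed, 11 gained and 80 lost a call, most of them when 1 library was left out of the share comparison. Leaving out 1 library left 0 of the 11 pairs past the threshold, because the exact test on 5 libraries cannot go below p = 0.0625; with 5000 to 20000 UMIs 5 of the pairs among 4 lineages passed. The Epcam/Krt8 minus Cd3e share turned to -0.0813 points with the naming genes alone, -0.28 at 2 times the mean level, -1.47 at 5000 to 20000 UMIs, and ran from -0.16 (without shPgk1 replicate 3) to 0.74 with 1 library left out; Col1a2 minus Cdh5 ran from -0.19 (without shNC replicate 2) to 0.33.

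Differences in share by label kept their sign in Epcam/Krt8 (2.33 to 3.79 points without 1 library) except within cluster 4 (-1.47). In S100a8 the sign turned with the naming genes alone (0.65), at 2 times the mean level (1.75) and with clusters (1.77), and ran from -1.70 to 0.44 without 1 library, turning at 0.23 without shNC replicate 3 and 0.44 without shPgk1 replicate 2. In Col1a2 it turned without ribosomal RNA-like and mitochondrial UMIs (-0.0269) and ran from -0.18 to 0.61 without 1 library (-0.18 without shNC replicate 3, -0.16 without shPgk1 replicate 2). In Cdh5 it ran from -0.44 (without shNC replicate 2) to 1.03.

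Lineage-specific calls of higher numbered 10, and 3 at 5000 to 20000 UMIs, 4 with RLE factors, 3 scaled to the member sum, 18 without a count filter and 10 to 11 without 1 library. Calls of lower numbered 69, and 39 with the naming genes alone, 14 at 2 times the mean level, 3 at 5000 to 20000 UMIs, 5 scaled to the member sum and 60 to 70 without 1 library. The shares of all genes called under these alternatives are not given here, so the counts are not read as particular to the members. Scaling to the member sum moves the median of all genes by construction (Epcam/Krt8 lineage fold from 0.01 to -0.60, S100a8 from -0.20 to 0.86, Epcam/Krt8 label fold from -0.02 to -0.29). It turned Rpl7l1 in Csf1r/Cd68 (-0.15) and S100a8 (0.69), Rpl22l1 in Epcam/Krt8 (-0.0201) and Csf1r/Cd68 (-0.0560), Rps27l in Epcam/Krt8 (-0.16) and S100a8 (0.22), and the Epcam/Krt8 label folds of Rps29 (-0.17), Rps20 (-0.0623), Rpl22l1 (-0.0141) and Rps27l (-0.10). At 5000 to 20000 UMIs Rps9 in Cd3e, less the median member, turned to 0.10, and Rpl22l1 turned in Epcam/Krt8 (-0.0398), Csf1r/Cd68 (-0.11) and Col1a2 (-0.17).

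Members called higher by label in Epcam/Krt8 numbered 0, and 3 with clusters, 8 without a filter, 21 with DESeq2 and 0 to 60 without 1 library (60 without shNC replicate 1); 1 was lower on the member-sum scale. In the 4 smaller lineages 0 to 1 were lower without 1 library (1 without shPgk1 replicate 1), and the interaction called 0 to 31 (31 without shNC replicate 1). With the replicate block, though the numbers do not pair the libraries, edgeR called 0 members in Epcam/Krt8. At an unadjusted p of 0.05 it had 36 members against 62 without the block, where 29.0% of all genes passed without the block. The share difference of 2.87 points had an exact p = 0.25 with the block, the smallest for 3 pairs. Shares of all genes called are given above for DESeq2, for the fits without shNC replicate 1 and for calls of higher on the member-sum scale. For the other alternatives of this paragraph they are not given here. The cause of the changes between settings was not tested. Depth limits the S100a8 and Cdh5 lineages most.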
